A study of Mus musculus with 4 samples.

Results

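The 7 mouse genes of the 14-3-3 protein family were examined in maps of RUVBL2 binding from the hypothalamus: Ywhab, Ywhae, Ywhag, Ywhah, Ywhaq, Ywhaz and Sfn. The genes were chosen by family name, and the family itself was selected on peaks already seen in these lists, among them the high rank of Ywhae, so the values below are a description and carry no test. They are 7 of 21779 protein-coding genes of the RefSeq gene table of GRCm38.p6. RUVBL2 is an ATPase that works with its partner RUVBL1 in chromatin remodelling and protein assembly complexes. All 4 libraries came from hypothalamus of C57BL/J male mice aged 8 weeks with the genotype WT, fixed in 1% formaldehyde. Of these, 2 were pulled down with an antibody to RUVBL2, and 2 were input chromatin with no antibody. The chromatin was that of the whole region, so binding in a minor share of its cells can go unlisted. The labels do not say whether replicates 1 and 2 came from separate animals, and their spread may be technical. The inputs brought no values of their own to this description.

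The 14-3-3 proteins are small acidic adaptors that form dimers and dock on client proteins carrying a phosphorylated serine or threonine. Docking can hold a client in the cytoplasm, block a site on it or change its activity, and clients include kinases, FOXO factors and the enzymes that make catecholamines and serotonin. Most isoforms are abundant in brain, whereas the sigma isoform encoded by Sfn is known from epithelia.

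Replicate 1 listed 3943 peaks and replicate 2 listed 6403, called in each library separately. A region was counted as shared where peaks of both lists overlapped by at least 1 bp, which gave 3111 regions. Read totals of the libraries were not used here. The median read pileup at a summit was 16 in replicate 1 and 22 in replicate 2. Of the markers set against the tissue label, shared regions lay in or within 3 kb of 2 of 11 pan-neuronal genes, Eno2 and Rbfox3. The Eno2 region lay outside the gene, and the midpoint of the Rbfox3 region was 80272 bp inside it. Only 1 of the 11 had a region within 3 kb of a gene end. Shared regions were held by 1 of 14 genes of hypothalamic neurons (Pomc), 0 of 13 of glia, vessels and ependyma and 0 of 8 liver genes. Among all coding genes, 17.3% had one. Eno2, Rbfox3 and Pomc were named after their values were seen, and peaks do not measure expression, so the tissue label was not tested by them.

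The annotated starts of 5 members could be placed on a strand, because the RefSeq promoter table of GRCm38.p6 held windows for Ywhae, Ywhaq, Ywhah, Ywhag and Sfn and not for Ywhab and Ywhaz. The 250 bases before each start are printed 5′ to 3′ on the strand of the gene, because the peaks of 4 of these genes covered part of them and those of Sfn did not. Capitals mark matches to the motifs searched. The windows were chr11:75732637-75732886 (plus strand) for Ywhae, chr12:21417437-21417686 (minus strand) for Ywhaq, chr5:33018566-33018815 (plus strand) for Ywhah, chr5:135934642-135934891 (minus strand) for Ywhag and chr4:133602169-133602418 (minus strand) for Sfn.
Ywhae: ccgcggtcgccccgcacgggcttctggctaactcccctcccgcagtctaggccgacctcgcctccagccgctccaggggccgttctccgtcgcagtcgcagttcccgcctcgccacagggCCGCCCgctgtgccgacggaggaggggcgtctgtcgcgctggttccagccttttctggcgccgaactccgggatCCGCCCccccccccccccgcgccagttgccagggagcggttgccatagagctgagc
Ywhaq: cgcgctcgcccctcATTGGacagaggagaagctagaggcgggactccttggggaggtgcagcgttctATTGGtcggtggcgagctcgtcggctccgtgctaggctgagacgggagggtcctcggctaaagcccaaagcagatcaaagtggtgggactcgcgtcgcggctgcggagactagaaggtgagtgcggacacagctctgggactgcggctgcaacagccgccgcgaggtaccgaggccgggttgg
Ywhah: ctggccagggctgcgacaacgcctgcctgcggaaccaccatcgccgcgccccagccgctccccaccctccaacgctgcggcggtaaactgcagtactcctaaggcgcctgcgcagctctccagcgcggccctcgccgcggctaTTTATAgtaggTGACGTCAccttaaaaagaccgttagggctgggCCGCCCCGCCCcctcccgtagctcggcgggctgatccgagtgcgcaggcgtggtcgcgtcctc
Ywhag: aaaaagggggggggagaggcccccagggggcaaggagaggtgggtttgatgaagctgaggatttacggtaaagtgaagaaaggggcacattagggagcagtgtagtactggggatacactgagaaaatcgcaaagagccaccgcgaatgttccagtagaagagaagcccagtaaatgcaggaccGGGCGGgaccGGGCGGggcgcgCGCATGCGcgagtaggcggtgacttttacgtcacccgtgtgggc
Sfn: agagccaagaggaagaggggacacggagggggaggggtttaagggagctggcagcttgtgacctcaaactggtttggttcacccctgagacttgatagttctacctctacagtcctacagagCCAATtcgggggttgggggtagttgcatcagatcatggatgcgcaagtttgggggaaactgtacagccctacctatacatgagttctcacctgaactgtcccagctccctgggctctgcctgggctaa

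A RUVBL2 peak lay in or within 3 kb of 6 of the 7 genes in each list, and in all 6 the peaks of the lists overlapped: Ywhab, Ywhae, Ywhag, Ywhah, Ywhaq and Ywhaz. Sfn had no peak in either list. Among all protein-coding genes, 21% had a peak in replicate 1, 32.8% in replicate 2 and 17.3% a shared region by the same rule. Among the 7362 genes between 9151 and 32955 bp long, the range of the 6 genes with a region, 19.3% had one. Each of the 6 genes held a single peak per list. The peak lying farthest outside a gene was that of Ywhah in replicate 1, 103 bp from it. The next peak beyond the limit was listed by replicate 1 only, 4565 bp from the far end of Ywhag, with a fold enrichment of 4.01 (95% counting interval 2.22 to 6.77).

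The 6 regions differed in fold enrichment, with Ywhae highest in both lists and Ywhag lowest. Fold enrichment, a value of the authors' peak caller, is the summit pileup divided by an estimated background, with 1 added to each, and the intervals are exact Poisson 95% intervals of the recovered pileup, which cover counting error only. Folds at the 6 genes ran from 4.37 to 11.4 in replicate 1, where the list's median was 4.93, and from 3.16 to 12.4 in replicate 2, where it was 4.74. Above those medians lay 5 of the 6 peaks in replicate 1 and 4 of the 6 in replicate 2. The pileups behind them were 16 to 36 reads in replicate 1 and 23 to 62 in replicate 2.

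**Figure D1:**
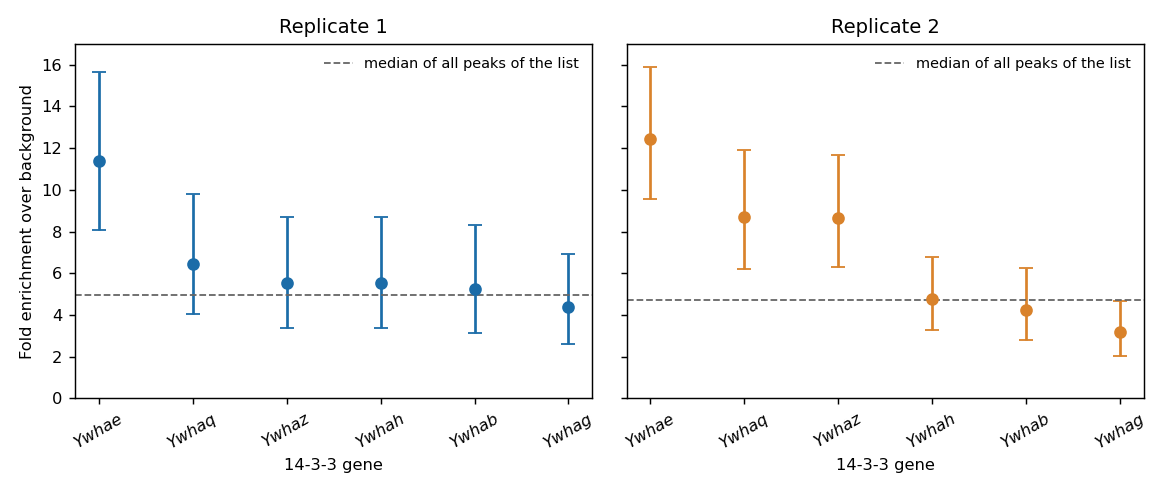
Fold enrichment (vertical axis) of the single peak at each of 6 14-3-3 genes (horizontal axis) in replicate 1 (left) and replicate 2 (right). Points are the authors' folds, bars the exact Poisson 95% interval of the summit pileup, and the dashed line the median of all peaks of that list; Ywhae is highest in both panels, at 11.4 and 12.4, and Ywhag lowest, at 4.37 and 3.16.

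Ywhae encodes 14-3-3 epsilon, which binds the phosphorylated dynein regulator NDEL1 in migrating neurons. Its region, chromosome 11 from 75732797 to 75733576, had a fold of 11.4 (8.08 to 15.7) from 36 reads in replicate 1. In replicate 2 the fold was 12.4 (9.58 to 15.9) from 62 reads. By −log10 p, the peak ranked 28 of 3943 and 41 of 6403. Placed by whichever of those ranks was worse, the region was number 23 of the 3111 shared regions. The peaks were 769 and 715 bp wide, and 704 bp were common to both. Both summits lay inside the gene, 118 bp after its start in replicate 1 and 300 bp after it in replicate 2. The peak covered 140 bases of the 300-base promoter window in replicate 1 and 75 in replicate 2, so most of each peak lay beyond the printed letters, inside the gene.

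The 3 genes whose shared regions were nearest to that of Ywhae in log2 fold of the 2 libraries, out of 3778 genes with a region including Ywhae itself, were Prrc2a, Polr2m and Epc2. Prrc2a, an RNA-binding protein gene, had fold enrichments of 11.4 and 12.7 in replicates 1 and 2, at a log2 distance of 0.03. Polr2m, whose product associates with RNA polymerase II, had folds of 11.7 and 12.2, at a distance of 0.05. Epc2, a subunit of the TIP60 acetyltransferase complex, had 10.6 and 12.1, at a distance of 0.11. Likeness over 2 libraries is a weak description.

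Ywhaq encodes the theta isoform, also called tau. The fold at its region (chromosome 12, 21417083 to 21418049) was 6.46 (4.07 to 9.81) from 20 reads in replicate 1 and 8.69 (6.19 to 11.9) from 37 reads in replicate 2. Its peaks ranked 679 and 305 in their lists. The summits fell on either side of the start, 65 bp before it in replicate 1 and 50 bp after it in replicate 2. The peaks had only 182 bp in common, which was 27.8% of the peak of replicate 1 and 36.8% of that of replicate 2. The replicate 1 peak reached farther upstream, where the long noncoding RNA gene Gm4419 begins on the opposite strand 446 bp from the Ywhaq start. Its start lay inside the region, so the signal there cannot be assigned to Ywhaq alone.

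Ywhaz encodes 14-3-3 zeta, known as a partner of the catecholamine-making enzyme tyrosine hydroxylase, and its region was the only one of the 6 away from the annotated gene ends. The gene spans chromosome 15 from 36770261 to 36802984, and the region lay from 36792531 to 36794425. The summits were 8978 and 8875 bp inside the end with the higher coordinate. The gene table lists 5 curated RefSeq transcripts for Ywhaz and 1 for each other member, without their starts, so it was not determined whether a transcript starts there. The fold was 5.55 (3.36 to 8.70) from 17 reads in replicate 1 and 8.67 (6.31 to 11.6) from 42 reads in replicate 2. In replicate 2 the peak was 1895 bp wide, wider than 99.8% of that list, against 622 bp in replicate 1. The narrower peak lay wholly within the wider one, and the summits were 103 bp apart. An end of the noncoding gene Gm41298, which lies inside the span of Ywhaz, was 2776 bp from the region.

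Ywhah encodes the eta isoform. Its region on chromosome 5 (33018234 to 33019556) had a fold of 5.55 (3.36 to 8.70) in replicate 1, the same as Ywhaz. Both rested on 17 reads over the lowest background of that list, a value that 153 peaks of replicate 1 shared. In replicate 1 the Ywhae fold also rested on that background (2.24), and the backgrounds at Ywhaq and Ywhab were 2.25. In replicate 2 the Ywhah fold was 4.78 (3.25 to 6.79) from 29 reads. The ranks were 1221, tied, and 2016. Summit agreement was lowest here. The summit of replicate 1 lay 219 bp before the start and that of replicate 2 lay 261 bp after it, 480 bp apart, a distance larger than that of 94.1% of all overlapping pairs. The replicate 1 peak (374 bp) ended before the gene began, and the replicate 2 peak (1323 bp) contained it and ran on into the gene.

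Ywhab and Ywhag had the lowest folds among the members with a peak, in both lists. Ywhab encodes 14-3-3 beta, and its region (chromosome 2, 163995183 to 163995627) lay at the end with the lower coordinate. The folds of Ywhab were 5.23 (3.12 to 8.29) from 16 reads in replicate 1 and 4.25 (2.78 to 6.24) from 24 reads in replicate 2. Its peaks ranked 1774 and 3424, and the summits lay 329 and 122 bp inside that end.

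Ywhag encodes the gamma isoform, which is prominent in neurons. The folds at its region (chromosome 5, 135934080 to 135934986) were 4.37 (2.61 to 6.93) from 16 reads in replicate 1 and 3.16 (2.05 to 4.67) from 23 reads in replicate 2. The ranks were 2320 and 5276, the latter 82.4% of the way down its list. The backgrounds at Ywhag, 2.89 and 6.60, were the highest among the members with a peak, and enter both fold and rank. Its pileups were close to those of Ywhab, 16 and 24 reads. The Ywhag summits lay 209 and 92 bp after the start. The wider peak of replicate 1 (907 bp) contained the whole peak of replicate 2 (403 bp). The noncoding gene Gm40346 begins on the same strand inside Ywhag, 325 bp from the Ywhag start. Its start lay inside the region, so the signal there cannot be assigned to Ywhag alone.

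**Figure D2:**
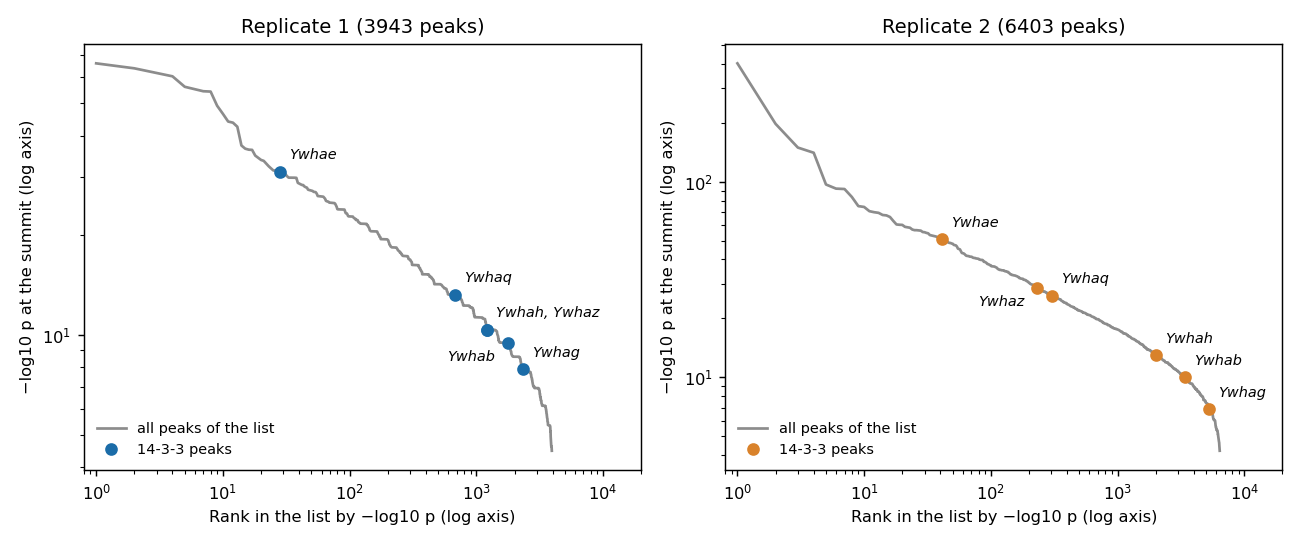
The −log10 p at the summit (vertical, log axis) against rank in the list (horizontal, log axis) for all peaks of replicate 1 (left) and replicate 2 (right), with the 14-3-3 peaks as labelled points. Ywhae is at rank 28 and 41, while Ywhag is at rank 2320 of 3943 and 5276 of 6403.

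The order of the isoforms by −log10 p was Ywhae, Ywhaq, then Ywhah level with Ywhaz, Ywhab and Ywhag in replicate 1. In replicate 2 it was Ywhae, Ywhaz, Ywhaq, Ywhah, Ywhab and Ywhag, and Ywhaz thus stood at a different place in the 2 lists. No neighbours in either order had counting intervals of the fold that stood apart. Of the 15 pairs of isoforms, the intervals did not overlap in 1 pair in replicate 1, where Ywhae stood above Ywhag. In replicate 2 they did not overlap in 6 pairs: Ywhae stood above Ywhah, Ywhab and Ywhag, Ywhaz above Ywhab and Ywhag, and Ywhaq above Ywhag. These intervals hold the background fixed and leave out any spread between replicates. In replicate 1 the background was 2.24 at Ywhae and 2.89 at Ywhag. In replicate 2 the backgrounds were 3.37 at Ywhaq, 3.96 at Ywhaz, 4.07 at Ywhae, 4.88 at Ywhab, 5.28 at Ywhah and 6.60 at Ywhag. Each pair standing apart in fold thus differed in background as well as in reads, and intervals of the reads alone were not compared.

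Summits of the overlapping peaks lay at most 480 bp apart, a distance that the overlap rule itself limits. The summits of the 6 overlapping pairs were 103, 115, 117, 182, 207 and 480 bp apart for Ywhaz, Ywhaq, Ywhag, Ywhae, Ywhab and Ywhah, with a median of 149.5 bp. Over all 3175 overlapping pairs of the lists the median was 94 bp, and 80.8% were within 250 bp, as were 5 of the 6 pairs here. At the 4 members with a placed start, 6 of 8 summits lay after the start and 2 before it, the latter both in replicate 1 (Ywhaq and Ywhah). Of all peaks with a summit within 3 kb of an annotated coding start, 71.0% in replicate 1 and 70.0% in replicate 2 had it after the start. The median over all these peaks, those before the start included, was 108 bp after it in replicate 1 and 101 bp after it in replicate 2. Peak widths at the 6 genes had medians of 638 and 605 bp in replicates 1 and 2, against 415 and 521 bp over the lists, and 4 and 3 of the 6 were wider than those list medians.

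**Figure D3:**
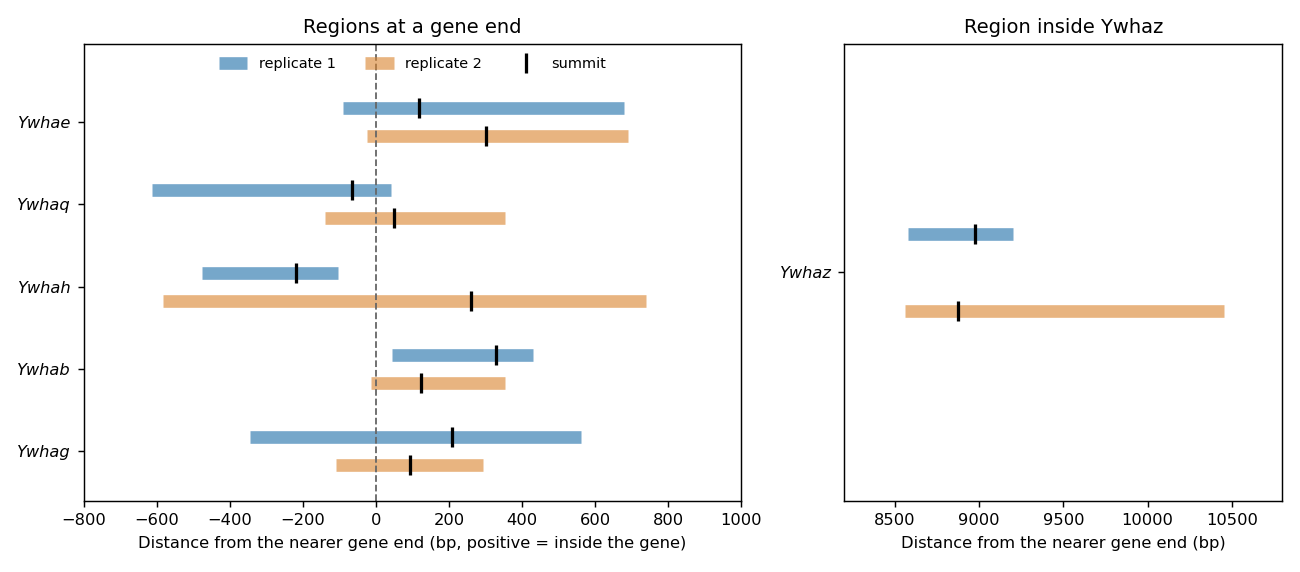
Peak intervals (bars) and summits (black ticks) of replicate 1 (blue) and replicate 2 (orange) at 5 genes whose region lies at a gene end (left) and at Ywhaz (right). The horizontal axis is the distance in bp from the nearer gene end, positive inside the gene, with the gene end as a dashed line; the Ywhaz summits lie 8978 and 8875 bp inside, and the Ywhah summits lie on either side of the end.

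Sfn encodes 14-3-3 sigma, a p53-induced inhibitor of cell cycle progression in epithelia. It spans 1613 bp on chromosome 4 (133600556 to 133602168), and the nearest peaks were 25440 bp away in replicate 1 and 25453 bp away in replicate 2. Its nearest coding neighbour, Zdhhc18, 2386 bp away, had no shared region either. The gene table also holds 3 pseudogenes of Ywhaq. None had a peak within 3 kb, and the closest was 5137 bp from Ywhaq-ps2 in replicate 2.

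The promoter of Sfn differed in base composition from those of the 4 other members with a window. The ratio of observed to expected CpG, the dinucleotide that marks CpG islands, was 0.186 at Sfn, in the lowest of 4 equal classes of the 21263 promoter windows of coding genes. It was 0.892 at Ywhag, 0.95 at Ywhae, 0.966 at Ywhaq and 1.03 at Ywhah, all in the highest class. GC content was 54.0% at Sfn and 61.3% to 71.7% at the others. Over all windows, a shared region overlapped 2 of 5316 (0.0376%) in the lowest class and 35.0% in the highest. Base composition therefore moved with the presence of a region across the whole table, and its part in the difference between Sfn and the other members was not tested.

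**Figure D4:**
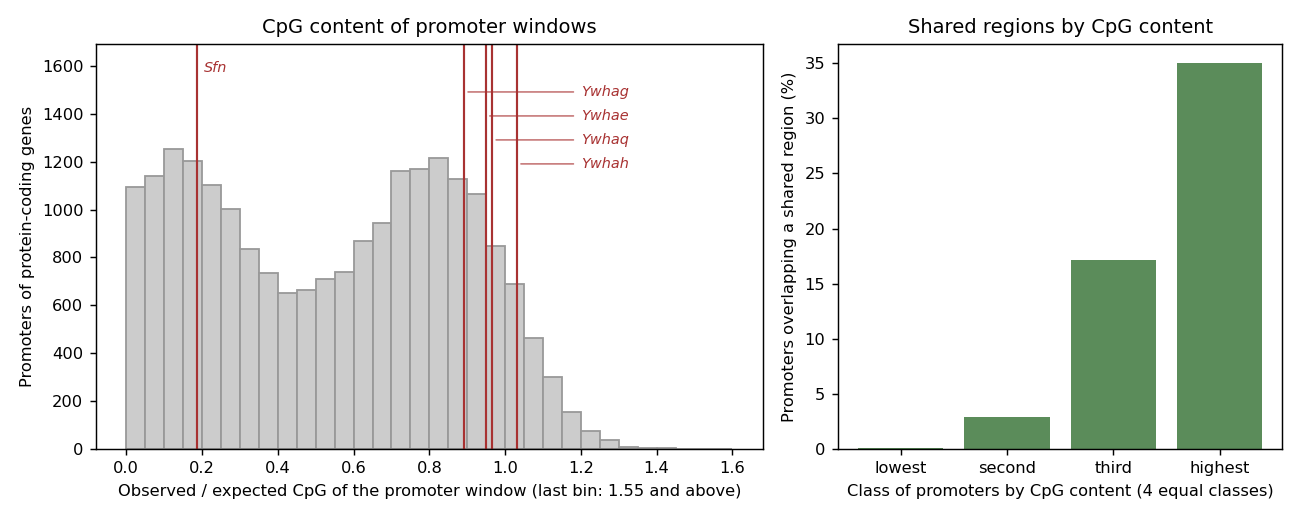
Left, number of promoter windows of coding genes (vertical axis) by observed over expected CpG (horizontal axis), with the 5 members that have a window as red lines. Right, the percentage of windows overlapping a shared region in each of 4 equal classes by CpG content, from 0.0376% in the lowest, which holds Sfn, to 35.0% in the highest, which holds the other 4 members.

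No motif was common to the 4 promoters that lay in a shared region. Matches were sought on both strands of the 300-base windows, and positions are counted from the annotated start as 0, negative before it. The GC box (GGGCGG), a site for SP family factors, was found at Ywhae, Ywhah and Ywhag, and in 46.2% of all windows and 72.8% of the 2926 windows in a shared region. Ywhae had it at −130 to −125 and −56 to −51. At Ywhah the matches at −63 to −58 and −58 to −53 overlapped by 1 base, and further matches lay just after the start. Ywhag had it at −66 to −61 and −56 to −51, with more at and after the start. The CCAAT box (CCAAT), bound by NF-Y, was found at Ywhaq, at −236 to −232 and −183 to −179, at Sfn, and at Ywhag only after the start. It occurred in 38.2% of all windows and 31.7% of those in a shared region.

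Other matches were single. Ywhah held a cyclic AMP response element (TGACGTCA) at −96 to −89, a match in 2.23% of all windows and 4.41% of those in a shared region. It also held a TATA box (TATAAA) at −107 to −102, a match in 12.6% of all windows and 3.96% of those in a shared region. Ywhag held an NRF1 core (CGCATGCG) at −44 to −37, present in 2.52% of all windows and 5.02% of those in a shared region. No member window held the ETS core (CCGGAAG), the YY1 site (AAGATGGCG), the E-box (CACGTG) or the element TCTCGCGA. These occurred in 11.6%, 1.83%, 7.84% and 1.41% of all windows, and in 24.4%, 7.25%, 10.8% and 4.24% of those in a shared region. A match is a string of letters and not a binding site.

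Genes of proteins that dock on 14-3-3 after phosphorylation held shared regions in 12 of 48 cases (25%), against 17.3% of coding genes. This list and the kinase list below were chosen with earlier results of these data known, so their shares carry no test. Replicate 1 listed a peak at 16 of the 48 (33.3%, against 21% of coding genes) and replicate 2 at 29 (60.4%, against 32.8%). A region at a gene end was held by 9 of the 48 (18.8%), against 16.2% of coding genes. Hdac4, a histone deacetylase that 14-3-3 holds in the cytoplasm, had fold enrichments of 6.47 and 7.82 in replicates 1 and 2, its region lying 14871 bp inside the gene. Akt1s1, an mTORC1 inhibitor, had 5.88 and 9.31, and the insulin receptor substrate gene Irs2 had 6.78 and 6.02.

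Genes of kinases that write such docking sites held shared regions in 9 of 24 cases (37.5%), against 17.3% of coding genes, and each of the 9 at a gene end, where 16.2% of coding genes held one. A peak was listed at 14 of the 24 in replicate 1 (58.3%, against 21%) and at 13 in replicate 2 (54.2%, against 32.8%). Mark3, a microtubule affinity kinase, stood best by the worse of the ranks in both libraries, at 122 in replicate 1 and 108 in replicate 2, its fold being 8.94 (6.04 to 12.8) in replicate 1 against 11.3 (8.31 to 15.0) in replicate 2. Lats1, the Hippo pathway kinase that phosphorylates YAP, had 8.77 at rank 111 and 5.74 at rank 1291. The best region of every gene in these 2 lists had a worse rank than that of Ywhae in each library. The high rank of Ywhae was among the values on which the family was selected, so this order is no test.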

How the data were processed

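RUVBL2 ChIP-seq peak lists of 2 libraries were analysed. Per the submitters' processing notes, the build was GRCm38 and the tools used by the authors were MACS2 2.1.0, Bowtie2 2.3.4.1, Trimmomatic 0.33, bcl2fastq 2.17 and ChIPseeker. Their settings and the control used for calling were not given in the sources used here. The deposited lists give a fold enrichment, a −log10 p, a −log10 q and a score for each peak; these are the authors' own values and were used within a list only. Summit lists repeated the summits and −log10 q. Replicate 2 peak names begin with Hyp3, and the list was assigned by its sample. Pileup and background were solved from fold and −log10 p, and a whole-number pileup matched 100% and 99.98% of peaks within a relative 0.0001. The step was tested on simulated data. Python 3.11.15, scipy 1.17.1 and pandas 2.3.3 were used.

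A gene held a peak where the interval overlapped its body widened by 3 kb. Gene ends, names and promoter windows came from RefSeq tables of GRCm38.p6; exons, introns and UTRs were not assigned, and 340 gene rows placed below 3 Mb (all chromosomes but Y) were left out. Members and lists were chosen with earlier results of these data known. Named besides the members were genes with an end within 3 kb of a member region, the best-ranked 4 partner and 3 kinase genes (2 of these are not reported here), and the 3 genes most like the best-ranked member in log2 fold. Alternatives covered thresholds, overlap, distance, rank measure and single libraries. No test was made, since 2 libraries form 1 group.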

Additional observations from a re-analysis of the deposited data

How the results depend on the processing

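With only the 1000 best peaks of each list, 2 members (Ywhae and Ywhaq) kept a shared region. A peak was then held by 2 members in replicate 1 and 3 in replicate 2. Shared regions were then held by 3 partner genes (6.25%), 1 kinase gene (4.17%) and 656 coding genes (3.01%). At a −log10 q of at least 5, 5 members remained, without Ywhag, and coding genes with a region fell to 1869 (8.58%). A 50% overlap lost Ywhaq, summits within 250 bp lost Ywhah, and gene ends only lost Ywhaz, and each left 5. In the same order of settings, 16.7%, 14.4% and 16.2% of coding genes held a region. Within 1 kb or 10 kb of the gene, by summit, by the nearest gene end, and without either replicate, the same 6 members were held. Of coding genes, 16.4% held a region within 1 kb, 20.5% within 10 kb, 17.2% by summit and 13.7% by the nearest gene end. Without replicate 1 there were 6 members, 29 partner, 13 kinase and 7145 coding genes with a peak, and without replicate 2 there were 6, 16, 14 and 4575. The median summit distance was 218 bp by midpoints and 182 bp at the −log10 q limit. Ranked by fold, 10 of 12 member ranks left the exact binomial interval of their percentage of the list: Ywhah went from 31.5% to 49.1% and Ywhag from 82.4% to 94.5% in replicate 2, where Ywhaq stood just above Ywhaz. Ranked among shared peaks, 11 of 12 did, all to a higher percentage. With nothing added to pileup and background, the Ywhae fold was 16.04 in replicate 1, above its interval, and the other 11 folds stayed within theirs. No paired analysis was possible because the inputs have no values to set beside the ChIP libraries. Pileups of 16 to 62 reads limit every fold.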
